A study of Mus musculus with 20 samples.

Results

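The 9 genes followed here act in the first steps downstream of the B cell receptor: Syk, Lyn, Btk, Blnk, Plcg2, Prkcb, Bcl10, Malt1 and Pik3ap1. They were picked by name, as genes known to act there. No measured value entered the rule, but earlier results of these data were known when they were picked. A gene was tested where 1 of its probe sets reached the array-wide median value of 7.45 in at least 2 arrays. Of these 9 genes 8 were tested among 11968 genes, each through the single probe set that carries its symbol, and all 8 passed that filter. Lyn, a Src family kinase, was not analysed here because no probe set listed in the annotation table carries its symbol.

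Total RNA of splenic B cells was hybridised to Affymetrix Mouse Gene 1.0 ST arrays, in 20 samples forming 10 groups of 2. The TAK1-deleted groups (mb-1/TAK1f/f) and the wild type groups (mb-1/TAK1+/+) were on the C57BL/6 background and 8 to 12 weeks old. The labels give the gender as mixed. TAK1, encoded by Map3k7, is a kinase that relays B cell receptor signals to the IκB kinase complex and MAP kinases, and mb-1, the older name of Cd79a, is active in the B lineage and is given for both genotypes. CD43-bearing cells had been removed on beads, and the remaining cells received anti-IgM, which cross-links the receptor, at 10 µg/ml in RPMI with 10% serum. Groups of each genotype were taken at 1, 3, 6 and 24 h of this stimulation and, as the 0 h group, unstimulated. How many mice stand behind a sample is not given, and the p-values therefore reflect differences among these samples that may be technical. Nor is it given whether the unstimulated cells had been cultured.

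When antigen binds the receptor, Src family kinases and Syk phosphorylate the receptor tails and the adaptor BLNK, which brings BTK to phospholipase Cγ2. That enzyme cleaves a membrane lipid into a messenger that releases calcium and into diacylglycerol, which activates protein kinase Cβ. Protein kinase Cβ then triggers the assembly of a complex that holds BCL10 and MALT1, through which TAK1 and NF-κB are engaged. BCAP, the product of Pik3ap1, recruits phosphoinositide 3-kinase beside this route.

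The labelled cell type was checked against its markers. The summed linear value of 11 pan B cell markers was 42089 to 82632 in TAK1-deleted arrays and 43202 to 86183 in wild type arrays, in both genotypes lowest at 6 h and highest at 0 h. Markers of other cells were present and not constant. The sum of 17 monocyte or macrophage markers in TAK1-deleted cells was 32598 to 34751 at 0 h and 12530 to 14166 at 1 h. It was then 4997 to 5918 at 3 h, 3810 to 4277 at 6 h and 17112 to 18899 at 24 h. In wild type cells it was 35128 to 37313 at 0 h and 10579 to 12974 at 1 h. There it was 5480 to 5500 at 3 h, 4076 to 4523 at 6 h and 6372 to 6759 at 24 h. Erythroid markers summed to 17709 to 21516 in TAK1-deleted cells against 6571 to 6673 in wild type cells at 0 h. Myeloid cells also use Syk, Btk, Plcg2 and Pik3ap1, and the part of these cells in the results was not tested. In bulk RNA fewer cells of a type and less RNA per cell cannot be told apart. Map3k7 itself had values of 10.4 to 10.76 in TAK1-deleted arrays and 10.16 to 10.71 in wild type arrays. Where its probes lie relative to the floxed part was not analysed here, so this does not check the genotype. The Y-linked gene Eif2s3y had values of 4.63 to 4.89 in TAK1-deleted arrays and 8.32 to 9.82 in wild type arrays, which shows that the genotypes differed in the sexes of the mice used. Uty and Kdm5d, also Y-linked, had 5.16 to 5.39 and 5.61 to 5.99 in TAK1-deleted arrays. Their wild type values were 7.56 to 8.8 and 8.01 to 8.98. No TAK1-deleted array thus showed the Y-linked signal of the wild type arrays, although the labels give mixed gender.

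**Figure D1:**
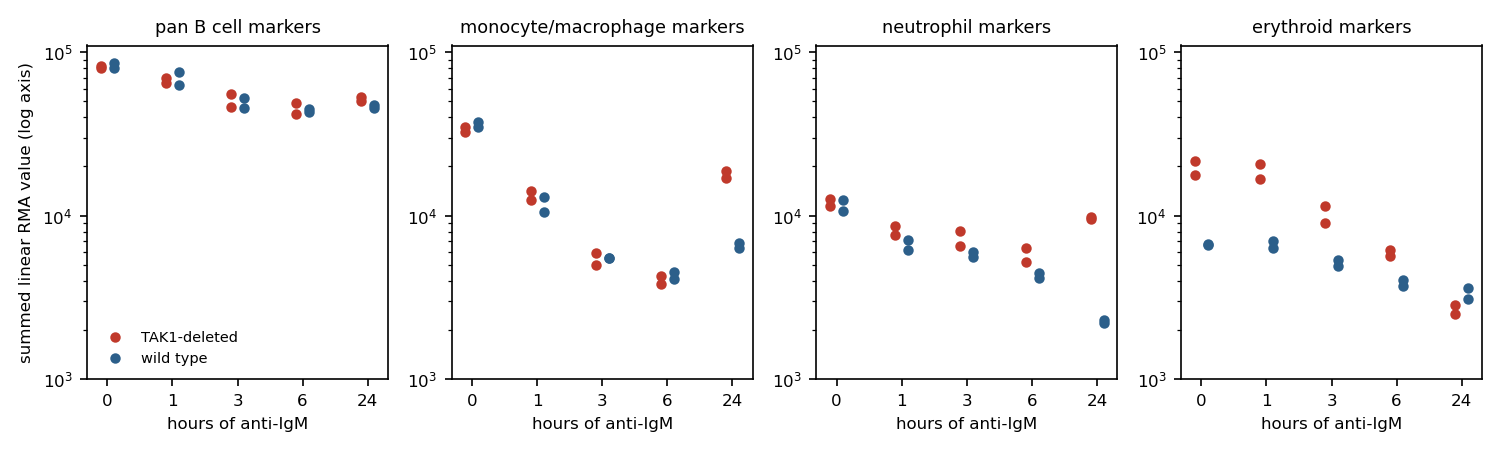
Summed linear values of the markers of 4 cell types in every array (log axis) against hours of anti-IgM, TAK1-deleted in red and wild type in blue. Over both genotypes the pan B cell sum is 80026 to 86183 at 0 h and 42089 to 48829 at 6 h. The monocyte or macrophage sum drops already by 1 h and further by 6 h in both genotypes. At 24 h the latter is 17112 to 18899 in TAK1-deleted against 6372 to 6759 in wild type cells.

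Promoter sequences are shown for 4 genes whose transcripts behaved differently: Syk had the largest fall, Btk was called between genotypes at 3 and 6 h, Prkcb was lowest at 6 h in both genotypes, and Pik3ap1 was the gene that was higher than at 0 h at 1, 3 and 6 h in both genotypes. The Btk calls between genotypes were lost when single arrays were left out. Malt1, not printed, was also called between genotypes, at 24 h. Each runs from 250 bases before to 50 bases after the start site on the gene's strand, from RefSeq on GRCm38.p6. Entries of 7 of the 9 genes were used, without Malt1 and Lyn. Syk had 2 start sites, of which the upstream one is printed. Capitals mark a match to 1 of 4 motifs searched on both strands: GAGGAAG, a core bound by the ETS factor PU.1; ATGCAAA, part of the octamer bound by OCT factors; TGANTCA, bound by AP-1; and GGG followed after any 3 bases by TTCC, bound by NF-κB.
Syk, chr13:52583187-52583486, plus strand: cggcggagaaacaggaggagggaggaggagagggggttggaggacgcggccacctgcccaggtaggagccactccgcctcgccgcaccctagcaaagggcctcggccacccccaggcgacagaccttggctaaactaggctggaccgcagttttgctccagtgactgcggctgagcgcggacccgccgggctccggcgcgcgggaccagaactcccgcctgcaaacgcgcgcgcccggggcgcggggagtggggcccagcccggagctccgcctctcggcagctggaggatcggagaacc
Btk, chrX:134583091-134583390, minus strand: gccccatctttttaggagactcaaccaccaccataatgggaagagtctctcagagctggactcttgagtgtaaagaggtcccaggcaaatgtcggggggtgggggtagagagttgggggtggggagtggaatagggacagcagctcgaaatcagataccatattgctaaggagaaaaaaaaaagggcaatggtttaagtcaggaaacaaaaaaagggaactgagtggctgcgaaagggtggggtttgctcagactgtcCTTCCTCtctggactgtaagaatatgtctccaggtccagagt
Prkcb, chr7:122288875-122289174, plus strand: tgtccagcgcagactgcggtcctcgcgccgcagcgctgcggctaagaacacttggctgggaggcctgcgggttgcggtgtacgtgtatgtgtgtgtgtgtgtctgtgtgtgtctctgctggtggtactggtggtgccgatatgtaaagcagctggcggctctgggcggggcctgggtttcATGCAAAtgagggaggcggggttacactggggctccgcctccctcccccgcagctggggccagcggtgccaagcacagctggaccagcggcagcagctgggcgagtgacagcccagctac
Pik3ap1, chr19:41385053-41385352, minus strand: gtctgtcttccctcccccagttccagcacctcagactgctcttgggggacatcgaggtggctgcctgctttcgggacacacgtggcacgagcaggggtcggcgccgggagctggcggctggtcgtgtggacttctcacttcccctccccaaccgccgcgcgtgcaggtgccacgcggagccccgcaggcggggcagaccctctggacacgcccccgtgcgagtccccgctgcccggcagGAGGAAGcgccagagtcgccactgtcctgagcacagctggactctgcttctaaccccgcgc
The Btk sequence holds GAGGAAG read on the opposite strand, printed as CTTCCTC and starting at base 9 from the start site. Pik3ap1 holds it on its own strand from base -11, and 13.6% of all 32851 promoter entries hold it. Prkcb holds ATGCAAA from base -70 and Blnk holds it on the opposite strand from base -129, against 4.63% of all entries. The letters of the AP-1 and NF-κB motifs were in none of the 8 windows of these 7 genes, against 7.81% and 5.56% of all entries. The GC content of the 4 printed windows was 72.0% for Syk, 49.3% for Btk, 65.3% for Prkcb and 69.7% for Pik3ap1, and the median of all entries was 52.7%.

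After anti-IgM most of the proximal genes fell within 3 to 6 h, and several came back by 24 h. Changes are log2 differences from limma, with standard error (SE) and a Benjamini-Hochberg adjusted p over the 11968 genes. A gene was called below 0.05, and every group had 2 arrays. In TAK1-deleted cells 2 of 8 genes were higher and 0 lower at 1 h, against 9.10% and 10.2% of all genes called in these directions. At 3 h 1 was higher and 4 lower (19.6% and 22.1% of all genes). At 6 h 1 was higher and 5 lower (18.5% and 17.3%), and at 24 h 0 were higher and 2 lower (14.9% and 12.7%). Wild type cells had 2 higher and 1 lower at 1 h (10.6% and 13.9% of all genes). At 3 h 1 was higher and 5 lower (20.9% and 23.2%), at 6 h 1 higher and 6 lower (24.1% and 19.1%), and at 24 h 1 higher and 4 lower (23.6% and 20.2%). The median change of the 8 genes was -0.06, -0.32, -0.54 and -0.11 at 1, 3, 6 and 24 h in TAK1-deleted cells, and -0.06, -0.56, -0.69 and -0.28 in wild type cells, while the median of all genes lay between -0.05 and 0.07.

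**Figure D2:**
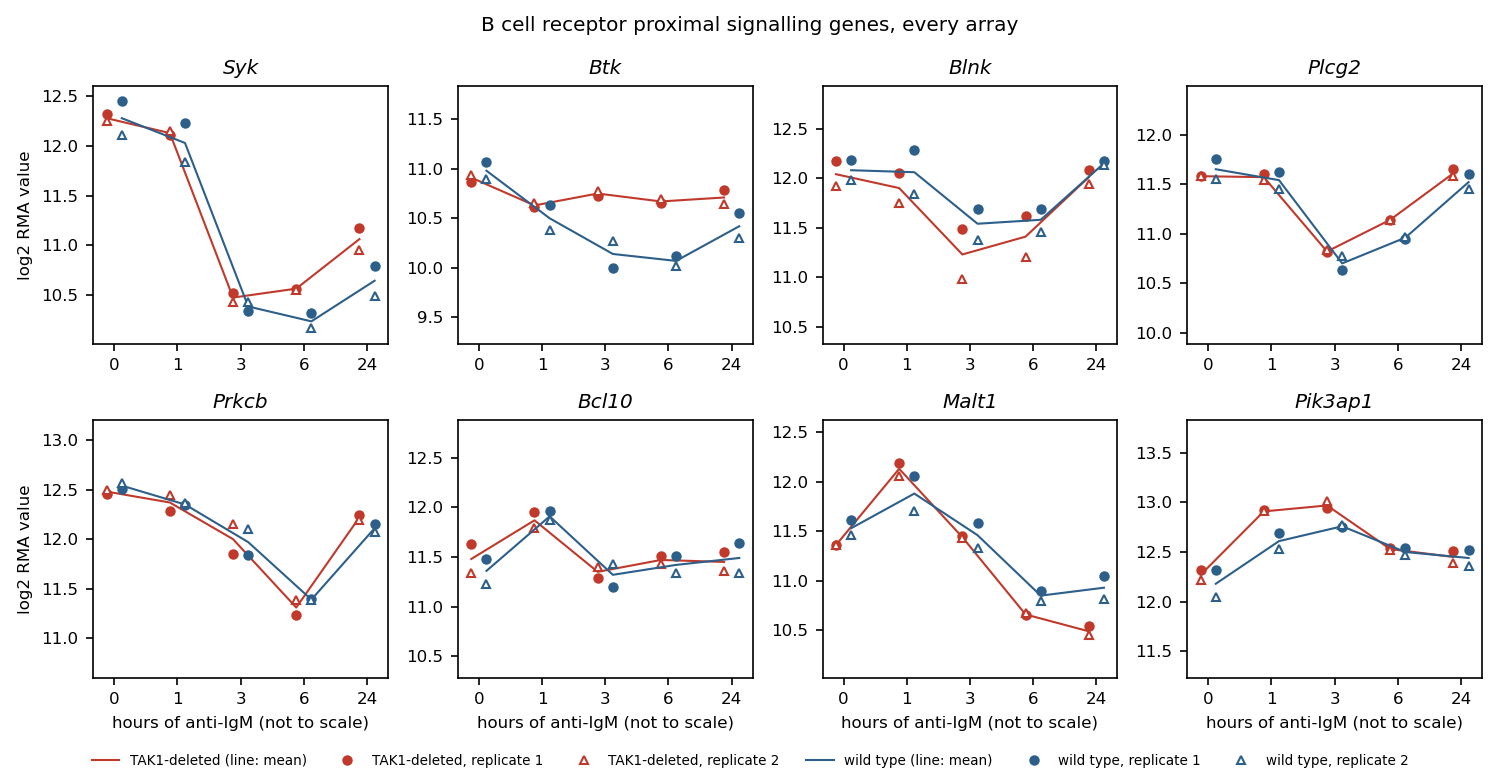
Deposited log2 RMA values of the 8 genes against hours of anti-IgM (time not to scale), with each array as a point (filled for replicate 1, open for replicate 2) and lines through group means, TAK1-deleted in red and wild type in blue. Every panel spans the same log2 range: Syk drops most in both genotypes, and Btk separates the genotypes at 3 and 6 h, with 10.65 to 10.78 in TAK1-deleted and 10.00 to 10.27 in wild type arrays.

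Syk, the kinase that binds the phosphorylated receptor tails, showed the largest fall of the 8 genes in both genotypes. Its log2 values in TAK1-deleted cells were 12.32 and 12.25 at 0 h, 12.11 and 12.15 at 1 h, 10.52 and 10.43 at 3 h, 10.56 and 10.55 at 6 h, then 11.17 and 10.95 at 24 h. In wild type cells they were 12.45 and 12.11 at 0 h, 12.23 and 11.84 at 1 h, 10.33 and 10.43 at 3 h, 10.31 and 10.16 at 6 h, then 10.79 and 10.49 at 24 h. All arrays from 3 h on lay below all arrays of 0 and 1 h. In TAK1-deleted cells Syk was 3.51-fold lower at 3 h (log2 change -1.81 ± 0.15, adjusted p = 1.28e-07), 3.31-fold lower at 6 h (-1.73 ± 0.15, adjusted p = 2.43e-07) and 2.34-fold lower at 24 h (-1.23 ± 0.15, adjusted p = 1.25e-05). Wild type cells showed a 3.73-fold lower level at 3 h (-1.90 ± 0.15, adjusted p = 6.2e-08), 4.13-fold at 6 h (-2.05 ± 0.15, adjusted p = 2.71e-08) and 3.12-fold at 24 h (-1.64 ± 0.15, adjusted p = 2.84e-07). At 1 h Syk did not pass the test in TAK1-deleted cells (-0.15 ± 0.15) or in wild type cells (-0.25 ± 0.15). The sum of 11 pan B cell markers moved in the same direction, with 42089 to 48829 at 6 h against 80026 to 82632 at 0 h in TAK1-deleted cells and 43202 to 45232 against 80432 to 86183 in wild type cells; its part in the fall of Syk was not tested.

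Btk, the Tec family kinase that phosphorylates phospholipase Cγ2, fell in wild type cells at each time after 0 h and passed the test at none in TAK1-deleted cells. TAK1-deleted cells had log2 values of 10.87 and 10.94 at 0 h, 10.61 and 10.65 at 1 h, 10.72 and 10.78 at 3 h, 10.65 and 10.69 at 6 h, then 10.79 and 10.64 at 24 h. The wild type values were 11.07 and 10.90 at 0 h, 10.63 and 10.38 at 1 h, 10.00 and 10.27 at 3 h, 10.12 and 10.02 at 6 h, then 10.55 and 10.30 at 24 h. The 10 TAK1-deleted arrays thus spanned 10.61 to 10.94, and the wild type arrays 10.00 to 11.07. In both genotypes every later array lay below both 0 h arrays, at 10.61 to 10.79 in TAK1-deleted and 10.00 to 10.63 in wild type cells. The change in TAK1-deleted cells was -0.28 ± 0.13 at 1 h (adjusted p = 0.169), -0.16 at 3 h (0.377), -0.24 at 6 h (0.186) and -0.19 at 24 h (0.324). Btk in wild type cells was 1.39-fold lower at 1 h (log2 change -0.48 ± 0.13, adjusted p = 0.0137), 1.80-fold lower at 3 h (-0.85 ± 0.13, adjusted p = 6.79e-05), 1.89-fold lower at 6 h (-0.92 ± 0.13, adjusted p = 3.16e-05) and 1.47-fold lower at 24 h (-0.56 ± 0.13, adjusted p = 0.00244). The wild type call at 1 h was lost without wild type 0 h replicate 1 (adjusted p = 0.128) or 1 h replicate 2 (adjusted p = 0.153).

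Blnk, the adaptor on which BTK and phospholipase Cγ2 meet, fell at 3 and 6 h in both genotypes and was back near its 0 h level at 24 h. Its log2 values in TAK1-deleted cells were 12.17 and 11.92 at 0 h, 12.05 and 11.75 at 1 h, 11.49 and 10.98 at 3 h, 11.62 and 11.20 at 6 h, then 12.08 and 11.94 at 24 h. Wild type cells had 12.18 and 11.98 at 0 h, 12.28 and 11.84 at 1 h, 11.69 and 11.38 at 3 h, 11.69 and 11.46 at 6 h, then 12.17 and 12.13 at 24 h. Replicate 1 was above replicate 2 in all 10 groups, and Blnk had the widest SE of the 8 genes. In TAK1-deleted cells Blnk was 1.75-fold lower at 3 h (-0.81 ± 0.19, adjusted p = 0.00319) and 1.55-fold lower at 6 h (-0.64 ± 0.19, adjusted p = 0.0178). Wild type Blnk was 1.46-fold lower at 3 h (-0.54 ± 0.19, adjusted p = 0.0331) and 1.42-fold lower at 6 h (-0.50 ± 0.19, adjusted p = 0.048). At 24 h the change was -0.04 (95% interval -0.45 to 0.38) in TAK1-deleted cells and 0.07 (-0.35 to 0.48) in wild type cells. Within each replicate number the falls agreed, at -0.68 and -0.94 (3 h) and -0.55 and -0.72 (6 h) in TAK1-deleted cells and at -0.49 and -0.59 (3 h) and -0.49 and -0.51 (6 h) in wild type cells. With the replicate number as a block they passed the test with adjusted p of 3.74e-07 and 1.05e-05 in TAK1-deleted cells and 5.02e-05 and 0.000117 in wild type cells. Without the block single arrays decided the calls. The TAK1-deleted 3 h call was lost without 3 h replicate 2 (adjusted p = 0.0587) and the 6 h call without 0 h replicate 1 (0.129) or 6 h replicate 2 (0.197). The wild type 3 h call was lost without 0 h replicate 1 (0.185) or 3 h replicate 2 (0.23), and the 6 h call without any 1 of its 4 arrays (0.0662 to 0.251).

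Pik3ap1, which encodes the adaptor BCAP, rose early, the opposite direction to Syk, Blnk, Plcg2 and Prkcb. In TAK1-deleted cells its log2 values were 12.32 and 12.22 at 0 h, 12.92 and 12.91 at 1 h, 12.94 and 13.01 at 3 h, 12.54 and 12.52 at 6 h, then 12.51 and 12.39 at 24 h. In wild type cells they were 12.32 and 12.05 at 0 h, 12.69 and 12.53 at 1 h, 12.75 and 12.77 at 3 h, 12.54 and 12.47 at 6 h, then 12.52 and 12.36 at 24 h. No array after 0 h lay within the 0 h range of its genotype. In TAK1-deleted cells Pik3ap1 was 1.57-fold higher at 1 h (log2 change 0.65 ± 0.10, adjusted p = 0.000156), 1.63-fold higher at 3 h (0.71 ± 0.10, adjusted p = 2.51e-05) and 1.20-fold higher at 6 h (0.26 ± 0.10, adjusted p = 0.0466), and at 24 h the change was 0.18 ± 0.10 (adjusted p = 0.202). The wild type level was 1.35-fold higher at 1 h (0.43 ± 0.10, adjusted p = 0.00384), 1.25-fold at 6 h (0.32 ± 0.10, adjusted p = 0.0135) and 1.20-fold at 24 h (0.26 ± 0.10, adjusted p = 0.0393). At 3 h the wild type log2 change was 0.58 ± 0.10 (adjusted p = 0.000138). Without a block for the replicate number the smaller of these rises depended on single arrays. The TAK1-deleted 6 h call was lost without any 1 of its 4 arrays (adjusted p of 0.0728 to 0.213). Without wild type 0 h replicate 2 the wild type calls at 1 h (0.30, adjusted p = 0.0635), 6 h (0.19, adjusted p = 0.201) and 24 h (0.13, adjusted p = 0.367) were lost. The 6 h call was also lost without 6 h replicate 1 (0.0935) and the 24 h call without 24 h replicate 1 (0.18, adjusted p = 0.255).

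Plcg2, the phospholipase that produces the calcium-releasing messenger and diacylglycerol, was lowest at 3 h and had come back at 24 h. TAK1-deleted cells had log2 values of 11.58 and 11.58 at 0 h, 11.60 and 11.54 at 1 h, 10.81 and 10.83 at 3 h, 11.14 and 11.14 at 6 h, then 11.65 and 11.58 at 24 h. The wild type values were 11.75 and 11.55 at 0 h, 11.62 and 11.45 at 1 h, 10.63 and 10.77 at 3 h, 10.95 and 10.97 at 6 h, then 11.60 and 11.45 at 24 h. The 3 and 6 h arrays lay below all others in both genotypes. The log2 change in TAK1-deleted cells was -0.76 ± 0.10 at 3 h (1.70-fold lower, adjusted p = 2.48e-05) and -0.44 ± 0.10 at 6 h (1.35-fold lower, adjusted p = 0.00381). The wild type change was -0.95 ± 0.10 at 3 h (1.93-fold lower, adjusted p = 2.27e-06) and -0.69 ± 0.10 at 6 h (1.61-fold lower, adjusted p = 5.67e-05). At 24 h the change from 0 h was 0.03 (95% interval -0.19 to 0.26) in TAK1-deleted cells and -0.13 (-0.35 to 0.10) in wild type cells.

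Prkcb, the protein kinase C isoform that diacylglycerol activates downstream of the receptor, reached its lowest level at 6 h, later than Plcg2. Its log2 values in TAK1-deleted cells were 12.46 and 12.50 at 0 h, 12.28 and 12.45 at 1 h, 11.85 and 12.15 at 3 h, 11.23 and 11.39 at 6 h, then 12.24 and 12.19 at 24 h. Wild type cells had 12.51 and 12.57 at 0 h, 12.34 and 12.36 at 1 h, 11.84 and 12.10 at 3 h, 11.40 and 11.39 at 6 h, then 12.15 and 12.07 at 24 h. The 6 h arrays of both genotypes, 11.23 to 11.40, lay apart from all other arrays, whose lowest value was 11.84. In TAK1-deleted cells Prkcb was 1.39-fold lower at 3 h (-0.48 ± 0.11, adjusted p = 0.00286) and 2.25-fold lower at 6 h (-1.17 ± 0.11, adjusted p = 9.06e-07). Its wild type level was 1.49-fold lower at 3 h (-0.57 ± 0.11, adjusted p = 0.000678), 2.22-fold lower at 6 h (-1.15 ± 0.11, adjusted p = 6.92e-07) and 1.34-fold lower at 24 h (-0.43 ± 0.11, adjusted p = 0.00602). In TAK1-deleted cells the change at 24 h was -0.26 ± 0.11 (adjusted p = 0.104), which passed the test when the replicate number was fitted as a block (adjusted p = 0.0207, with 20.6% of all genes called lower in that fit). The TAK1-deleted call at 3 h was lost without 3 h replicate 1 (-0.33, adjusted p = 0.0524).

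Bcl10 and Malt1 encode the adaptor and the paracaspase of the complex that links protein kinase Cβ to NF-κB, and both were highest at 1 h. The log2 values of Bcl10 in TAK1-deleted cells were 11.63 and 11.34 at 0 h, 11.95 and 11.79 at 1 h, 11.29 and 11.40 at 3 h, 11.51 and 11.43 at 6 h, then 11.55 and 11.36 at 24 h. In wild type cells they were 11.48 and 11.23 at 0 h, 11.96 and 11.87 at 1 h, 11.20 and 11.43 at 3 h, 11.51 and 11.34 at 6 h, then 11.64 and 11.34 at 24 h. The 1 h arrays lay above all others, which ranged from 11.20 to 11.64. Bcl10 had a change at 1 h of 0.38 ± 0.14 in TAK1-deleted cells (adjusted p = 0.071, and 0.00742 with the replicate block, where 15.1% of all genes were called higher) and of 0.56 ± 0.14 in wild type cells (1.47-fold higher, adjusted p = 0.00785). The wild type call was lost without 0 h replicate 2 (0.43, adjusted p = 0.0814). At 3, 6 and 24 h Bcl10 stayed between -0.14 and 0.13 of its 0 h level in both genotypes, and no such change passed the test.

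Malt1 was the gene called in both directions, higher at 1 h and lower later in TAK1-deleted cells. In TAK1-deleted cells its log2 values were 11.36 and 11.36 at 0 h, 12.19 and 12.06 at 1 h, 11.45 and 11.43 at 3 h, 10.65 and 10.67 at 6 h, then 10.54 and 10.45 at 24 h. Wild type arrays gave 11.61 and 11.46 at 0 h, 12.06 and 11.70 at 1 h, 11.58 and 11.33 at 3 h, 10.90 and 10.80 at 6 h, then 11.05 and 10.82 at 24 h. In both genotypes the 6 and 24 h arrays lay below all others. In TAK1-deleted cells Malt1 was 1.70-fold higher at 1 h (0.77 ± 0.13, adjusted p = 0.000453), 1.62-fold lower at 6 h (-0.70 ± 0.13, adjusted p = 0.000527) and 1.82-fold lower at 24 h (-0.86 ± 0.13, adjusted p = 0.000114). The wild type change at 1 h was 0.35 ± 0.13 (adjusted p = 0.0635, and 0.00392 with the replicate block, where 17.2% of all genes were called higher). Wild type Malt1 was 1.61-fold lower at 6 h (-0.68 ± 0.13, adjusted p = 0.000452) and 1.52-fold lower at 24 h (-0.60 ± 0.13, adjusted p = 0.00132). Unlike Blnk and Plcg2, which had returned near their 0 h level at 24 h, Malt1 was still lower then in both genotypes.

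**Figure D3:**
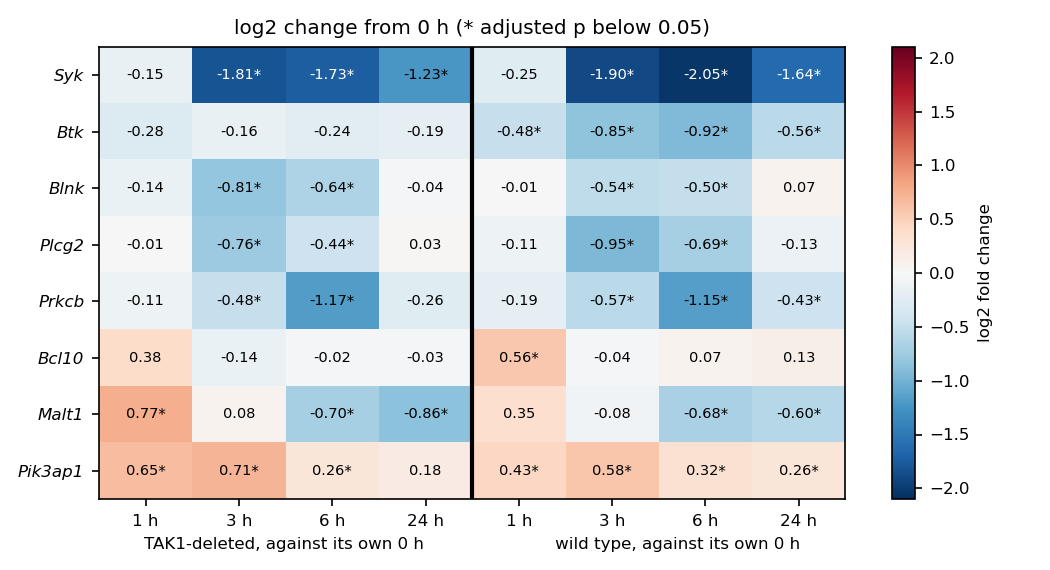
Log2 change from the 0 h group of the same genotype for the 8 genes (rows) at 1, 3, 6 and 24 h, TAK1-deleted on the left and wild type on the right, with an asterisk where the adjusted p was below 0.05. Syk carries the deepest values (-1.81 at 3 h in TAK1-deleted cells and -2.05 at 6 h in wild type cells), Pik3ap1 is positive in all 8 columns, and Btk is called in the 4 wild type columns.

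Over the whole course, 15 of 32 gene and time pairs were called against 0 h in TAK1-deleted cells (4 higher, 11 lower) and 21 of 32 in wild type cells (5 higher, 16 lower). Of all genes, 9.10% to 19.6% were called higher and 10.2% to 22.1% lower at a time in TAK1-deleted cells. In wild type cells 10.6% to 24.1% were called higher and 13.9% to 23.2% lower. The pairs called higher lay within these shares. Both genotypes are set against their own 0 h arrays. Of the calls in the 8 genes 11 of 15 and 14 of 21 passed the test whichever single array was omitted. The same count over all genes is not given here.

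Between successive times the largest movement came between 1 and 3 h. In TAK1-deleted cells 6 of 8 genes were lower at 3 h than at 1 h (17.2% of all genes were called lower and 15.4% higher), led by Syk (-1.66 ± 0.15, adjusted p = 1.08e-06), Plcg2 (-0.75 ± 0.10, adjusted p = 6.12e-05) and Malt1 (-0.69 ± 0.13, adjusted p = 0.000808). Wild type cells had 7 lower (18.0% lower and 18.1% higher of all genes), led by Syk (-1.65 ± 0.15, adjusted p = 8.11e-07), Plcg2 (-0.84 ± 0.10, adjusted p = 1.68e-05) and Bcl10 (-0.60 ± 0.14, adjusted p = 0.00332). These 6 calls held with each array left out. The other TAK1-deleted calls were lost without 1 array or the other: Blnk (-0.67) without 1 h replicate 1 (adjusted p = 0.13) or 3 h replicate 2 (0.182), Prkcb (-0.37) without 1 h replicate 2 (0.172) or 3 h replicate 1 (0.244), and Bcl10 (-0.52) without 1 h replicate 1 (0.0821) or 3 h replicate 1 (0.0623). Among the wild type calls Btk (-0.37) was lost without replicate 1 of 1 h (0.268) or of 3 h (0.317), Blnk (-0.53) and Malt1 (-0.43) without 1 h replicate 1 (0.341 and 0.223) or 3 h replicate 2 (0.276 and 0.175), and Prkcb (-0.38) without either 1 h array (0.0557 and 0.0638) or 3 h replicate 1 (0.189).

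From 3 to 6 h Prkcb and Malt1 went on falling in both genotypes. In TAK1-deleted cells 3 of 8 were lower at 6 h than at 3 h (2.42% of all genes lower, 3.66% higher): Prkcb (-0.69 ± 0.11, adjusted p = 0.00169), Malt1 (-0.78 ± 0.13, adjusted p = 0.00188) and Pik3ap1 (-0.44 ± 0.10, adjusted p = 0.0124). The last was lost without 3 h replicate 2 (0.0942) or either 6 h array (0.0865 and 0.0777). Wild type cells had 2 lower (2.87% lower, 5.83% higher of all genes): Prkcb (-0.58 ± 0.11, adjusted p = 0.00501), lost without 3 h replicate 2 (0.0876) or 6 h replicate 1 (0.0501), and Malt1 (-0.61 ± 0.13, adjusted p = 0.00904), lost without 3 h replicate 1 (0.103) or either 6 h array (0.0528 and 0.0942). With the replicate block Plcg2 was also higher at 6 h than at 3 h, by 0.33 in TAK1-deleted cells (adjusted p = 0.009) and 0.26 in wild type cells (adjusted p = 0.0286), and Pik3ap1 was lower in wild type cells too (-0.26, adjusted p = 0.014). That fit called 12.1% of all genes higher and 8.63% lower in TAK1-deleted cells and 17.8% higher and 8.14% lower in wild type cells.

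From 6 to 24 h the direction turned for several of the fallen genes. In TAK1-deleted cells 4 of 8 were higher at 24 h than at 6 h (10.8% of all genes higher, 8.05% lower). Prkcb had the largest rise (0.91 ± 0.11, adjusted p = 3.76e-05), which held with each array left out. Plcg2 (0.47 ± 0.10, adjusted p = 0.00487) was lost without 24 h replicate 1 (0.0505), Syk (0.50 ± 0.15, adjusted p = 0.0257) without either 6 h array (0.104 and 0.112) or 24 h replicate 1 (0.208), and Blnk (0.60 ± 0.19, adjusted p = 0.0416) without 6 h replicate 2 (0.341) or either 24 h array (0.209 and 0.102). Wild type cells had 2 higher (9.02% higher, 10.4% lower of all genes), Prkcb (0.72 ± 0.11, adjusted p = 0.000247) and Plcg2 (0.56 ± 0.10, adjusted p = 0.00105), and both held with each array left out. With the replicate block Syk (0.40, adjusted p = 0.00501), Btk (0.36, adjusted p = 0.0149) and Blnk (0.57, adjusted p = 6.87e-05) were also higher at 24 h than at 6 h in wild type cells, and the rises between adjacent times numbered 6 of 24 there, against 2 without the block; 15.7% of all genes were called higher at 24 h than at 6 h in that fit.

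TAK1-deleted and wild type cells differed in few of these genes at the same time. No gene was called at 0 h, where the differences ran from -0.18 for Malt1 to 0.13 for Bcl10 (of all genes 1.50% were called higher and 0.819% lower), or at 1 h (2.07% and 2.21%). At 3 h Btk was higher in TAK1-deleted cells (1.00% of all genes higher, 1.70% lower), and at 6 h Btk was again the called gene (0.927% higher, 1.60% lower). At 24 h Malt1 was lower in TAK1-deleted cells (7.04% higher, 5.18% lower of all genes). In all 2 of 40 gene and time pairs were called higher and 1 lower.

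At 3 h Btk had log2 values of 10.72 and 10.78 in TAK1-deleted cells against 10.00 and 10.27 in wild type cells, a 1.53-fold higher level (0.61 ± 0.13, 95% interval 0.33 to 0.89, adjusted p = 0.0163). At 6 h it had 10.65 and 10.69 in TAK1-deleted cells against 10.12 and 10.02 in wild type cells, 1.52-fold higher (0.60 ± 0.13, 95% interval 0.32 to 0.88, adjusted p = 0.0203). The groups did not overlap at either time, and at 0 h they did. Uncalled pairs, such as Prkcb at 0 h (-0.06 ± 0.11), were also without overlap. The share of all genes without overlap is not given here, so no result is read from it. The 3 h call was lost without TAK1-deleted replicate 1 (adjusted p = 0.0619), TAK1-deleted replicate 2 (0.121) or wild type replicate 1 (0.244), and the 6 h call without any 1 of its 4 arrays (0.114 to 0.211). Btk lies on the X chromosome, and Xist, the RNA of the inactive X, had values of 12.51 to 13.08 in TAK1-deleted arrays and 11.85 to 12.38 in wild type arrays. At 0 h the Btk difference was -0.08 ± 0.13. The part of the unmatched sexes in the Btk values was not tested at any time.

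Malt1 at 0 h had values of 11.36 and 11.36 in TAK1-deleted against 11.61 and 11.46 in wild type cells, without overlap. That difference was not called (-0.18 ± 0.13, adjusted p = 0.995). At 24 h Malt1 had 10.54 and 10.45 in TAK1-deleted cells against 11.05 and 10.82 in wild type cells, again without overlap. It was then 1.36-fold lower (-0.44 ± 0.13, 95% interval -0.72 to -0.16, adjusted p = 0.0372). The call was lost without TAK1-deleted replicate 1 (adjusted p = 0.106), TAK1-deleted replicate 2 (0.211) or wild type replicate 1 (0.309). At this time markers of other cells also differed: the neutrophil sum was 9503 to 9883 in TAK1-deleted and 2213 to 2287 in wild type cells, with 12 of 13 markers called higher, and 13 of 17 monocyte or macrophage markers were called higher. Their part in the 24 h values was not tested. Syk at 24 h was 11.17 and 10.95 in TAK1-deleted against 10.79 and 10.49 in wild type cells (0.42 ± 0.15, adjusted p = 0.082), and passed the test with the replicate block (adjusted p = 0.00538). So did Pik3ap1 at 1 h (0.30 ± 0.10, adjusted p = 0.11, and 0.00977 with the block), with 12.92 and 12.91 in TAK1-deleted against 12.69 and 12.53 in wild type cells. With the block 4 of the 40 pairs were called higher and 1 lower, in a fit that called 4.10% of all genes higher and 2.89% lower at 0 h, 7.19% and 5.72% at 1 h, 3.82% and 4.50% at 3 h, 4.34% and 7.85% at 6 h, then 14.7% and 14.1% at 24 h. Blnk, Plcg2, Prkcb and Bcl10 passed the test at no time, and the widest 95% intervals were those of Blnk, of which the one at 3 h ran from -0.72 to 0.11 (difference -0.30). With the replicate block that interval was -0.50 to -0.11 (adjusted p = 0.0509).

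**Figure D4:**
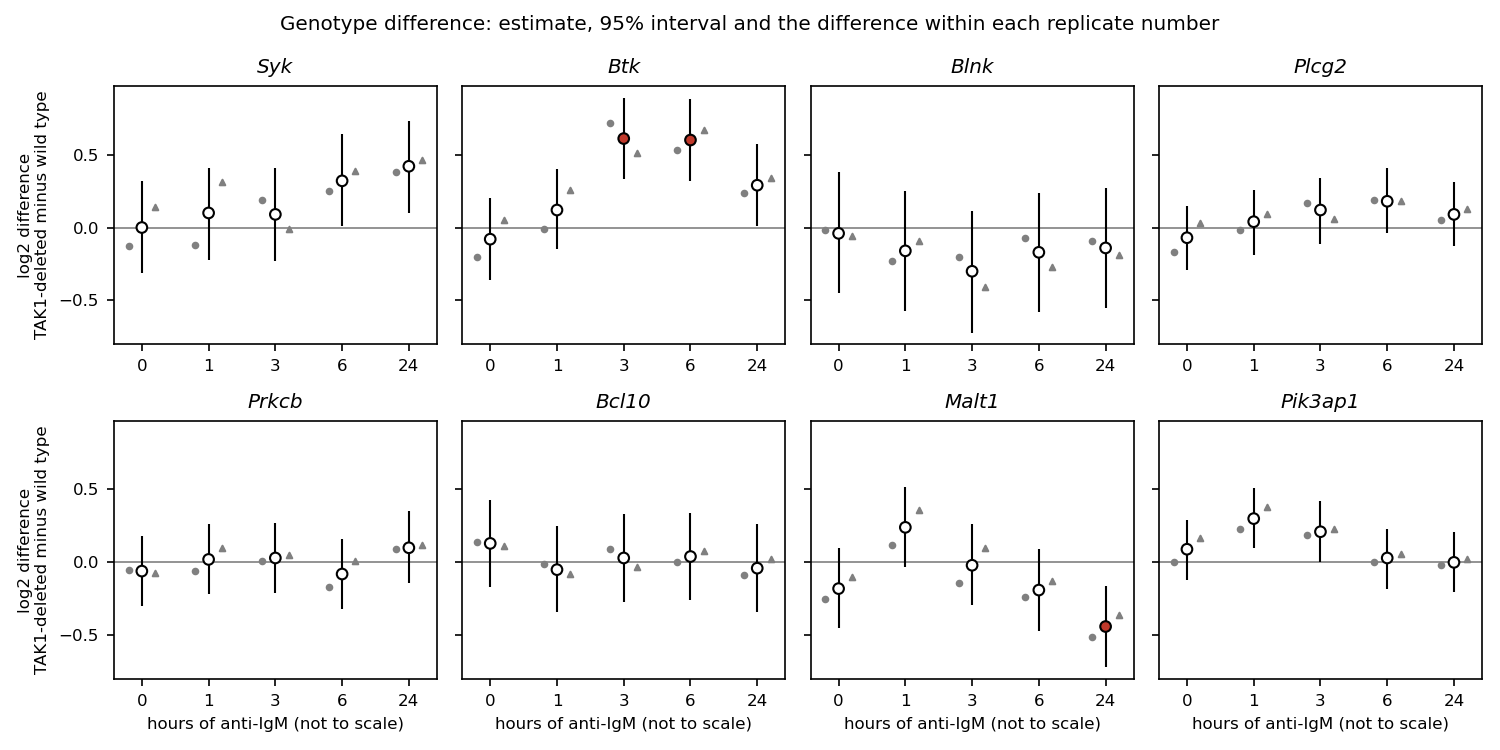
Log2 difference between TAK1-deleted and wild type cells (TAK1-deleted minus wild type) at each time for the 8 genes, with the 95% interval as a line, and small grey marks for the difference within replicate 1 (circle) and replicate 2 (triangle). Filled red points passed the test: Btk at 3 h (0.61) and 6 h (0.60) and Malt1 at 24 h (-0.44).

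Whether the change from 0 h itself differed between the genotypes was tested as an interaction. Of the 32 gene and time pairs 0 were called, against 0.00% of all genes higher and 0.109% lower at 1 h, 0.00% and 0.0585% at 3 h, 0.0919% and 0.192% at 6 h, then 4.62% and 4.04% at 24 h. At an unadjusted p below 0.05 3 pairs passed: Btk at 3 and 6 h, which share their 0 h arrays, and Malt1 at 1 h. The share of all genes at that threshold is not given here, so no result is read from this count. The largest difference in response was that of Btk, 0.69 ± 0.19 at 3 h (95% interval 0.30 to 1.08, adjusted p = 0.278) and 0.68 ± 0.19 at 6 h (0.29 to 1.07, adjusted p = 0.145), the fall in wild type cells being the deeper. With the replicate number as a block both passed (adjusted p = 0.0213 and 0.0123), against 0.560% and 1.81% of all genes called higher in that fit. The response of Malt1 at 1 h differed by 0.42 ± 0.18 (adjusted p = 1) and that of Syk at 24 h by 0.41 ± 0.21 (adjusted p = 0.306, and 0.0544 with the block). For Malt1 at 24 h the response differed by -0.26 ± 0.18 (adjusted p = 0.53, and 0.166 with the block).

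The wider pathway was read from 89 further genes in 6 lists, of which 80 were tested. In TAK1-deleted cells the genes called lower were 10 (12.5% of the 80, against 10.2% of all genes) at 1 h, 42 (52.5% against 22.1%) at 3 h, 41 (51.2% against 17.3%) at 6 h and 28 (35.0% against 12.7%) at 24 h. In wild type cells they were 17 (21.2% against 13.9%) at 1 h, 43 (53.8% against 23.2%) at 3 h, 45 (56.2% against 19.1%) at 6 h and 44 (55.0% against 20.2%) at 24 h. The TAK1-deleted count at 1 h thus lay near the share of all genes. Fewer were called higher: in TAK1-deleted cells 3, 11, 5 and 9 at 1, 3, 6 and 24 h (9.10%, 19.6%, 18.5% and 14.9% of all genes), and in wild type cells 5, 7, 5 and 8 (10.6%, 20.9%, 24.1% and 23.6% of all genes). Their median change at 6 h was -0.41 in TAK1-deleted cells and -0.56 in wild type cells, against 0.06 and 0.05 for all genes. With the replicate block 32 were lower at 1 h in TAK1-deleted cells (21.2% of all genes) and 35 in wild type cells (26.1%), where 9 were higher (17.2%). In that fit 12 were higher in TAK1-deleted cells (28.2%) and 9 in wild type cells (32.2%) at 6 h, 16 (27.4%) and 13 (28.8%) at 3 h, and 16 in TAK1-deleted cells at 24 h (24.1%). The genes named here are among the 4 with the largest called changes in a direction of a contrast; each call given passed the test whichever single array of its contrast was omitted, unless stated.

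All 5 tested receptor and coreceptor genes were lower at 3 and 6 h in both genotypes. Cr2, a complement receptor of B cells, was at 24 h -3.31 ± 0.15 from 0 h in TAK1-deleted cells (adjusted p = 4.63e-10) and -3.36 ± 0.15 in wild type cells (adjusted p = 1.75e-10). Among 7 other Src and Tec kinases and their regulators, Fyn, a Src family kinase, rose by 2.23 ± 0.13 at 3 h in TAK1-deleted cells (adjusted p = 4.73e-09) and by 1.77 ± 0.13 in wild type cells (adjusted p = 4.19e-08). At that time 3 of the 7 fell in each genotype, against 22.1% of all genes in TAK1-deleted cells and 23.2% in wild type cells. For the counts at 6 h that follow, 17.3% of all genes fell in TAK1-deleted cells and 19.1% in wild type cells. Among 22 adaptors and exchange factors 9 fell at 6 h in TAK1-deleted cells and 7 in wild type cells, with Bank1, a B cell scaffold protein, at -3.15 ± 0.18 (adjusted p = 3.76e-09) and -2.43 ± 0.18 (adjusted p = 4.09e-08). Vav3, a guanine nucleotide exchange factor, was higher at 24 h in both (1.94 ± 0.14, adjusted p = 3.14e-08, and 1.54 ± 0.14, adjusted p = 2.01e-07).

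Among 12 phosphoinositide 3-kinase and lipid enzymes 6 fell at 6 h in TAK1-deleted cells and 8 in wild type cells. Pik3cg, a catalytic subunit of phosphoinositide 3-kinase, was at -1.86 ± 0.17 at 3 h in wild type cells (adjusted p = 3.77e-07). Pip5k1c, which makes the lipid that phospholipase Cγ2 cleaves, was higher at 24 h in TAK1-deleted cells (1.08 ± 0.17, adjusted p = 0.000183) and wild type cells (0.92 ± 0.17, adjusted p = 0.000385). Of 16 calcium and diacylglycerol effectors 9 fell at 6 h in each genotype. Rasgrp2, an exchange factor for small GTPases, changed by -2.75 ± 0.19 in TAK1-deleted cells (adjusted p = 1.99e-08) and -3.22 ± 0.19 in wild type cells (adjusted p = 3.06e-09). Its relative Rasgrp4 was at -2.55 ± 0.24 at 6 h in TAK1-deleted cells (adjusted p = 7.26e-07) and -2.59 ± 0.24 in wild type cells (adjusted p = 3.86e-07). The monocyte or macrophage marker sum also fell by 6 h, and the part of such cells in these values was not tested. Orai1, the pore of the store-operated calcium channel, was already higher at 1 h (1.24 ± 0.18, adjusted p = 0.000137, in TAK1-deleted and 1.54 ± 0.18, adjusted p = 1.16e-05, in wild type cells). Of 18 inhibitors 9 fell at 6 h in TAK1-deleted cells and 11 in wild type cells, with Cd22, an inhibitory receptor of B cells, at -2.52 ± 0.20 (adjusted p = 1.25e-07) and -2.57 ± 0.20 (adjusted p = 7.06e-08).

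**Figure D5:**
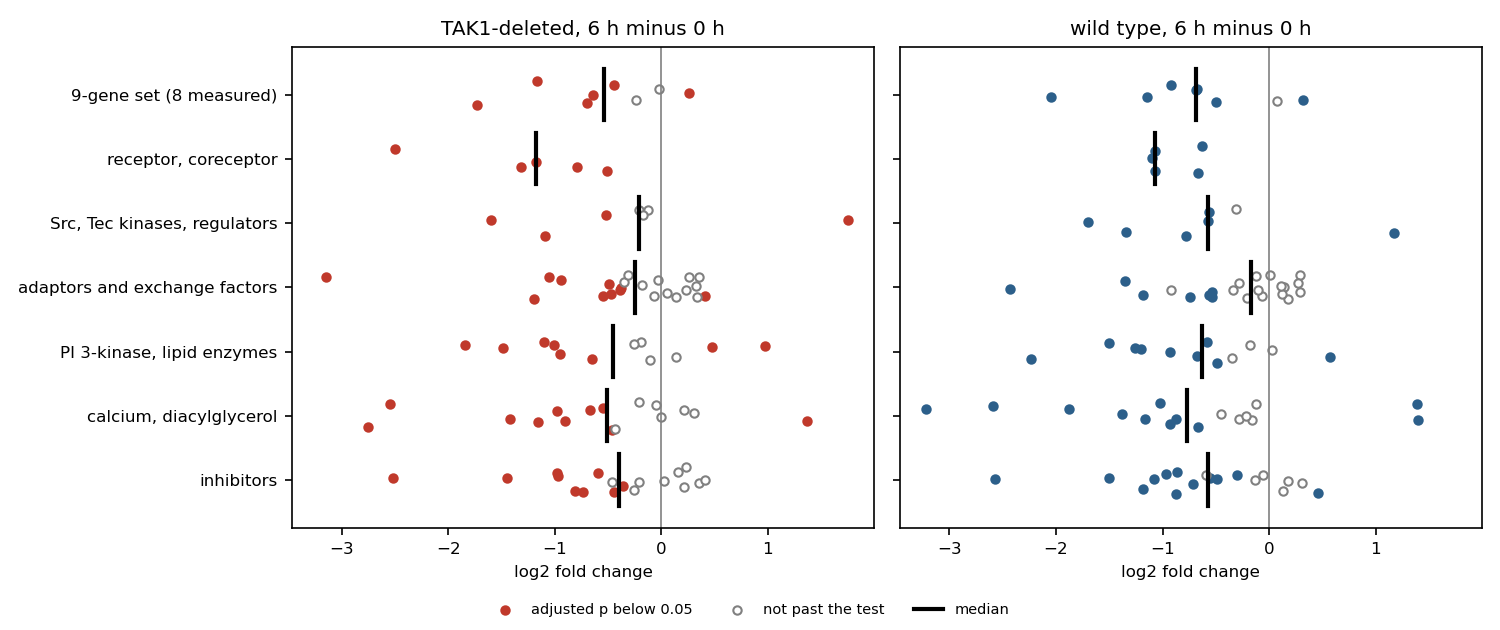
Log2 change at 6 h from 0 h of the 8 measured genes (top row) and of the 80 tested genes of the 6 pathway lists, TAK1-deleted on the left and wild type on the right, filled where the adjusted p was below 0.05, with each list's median as a bar. All 5 receptor and coreceptor genes lie below 0 and are filled in both panels.

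Between genotypes 0 of the 80 pathway genes were called at 0 h (1.50% of all genes higher and 0.819% lower). In TAK1-deleted cells 4 were lower at 1 h (2.21% of all genes), 1 was higher and 3 lower at 3 h (1.00% and 1.70%), and 3 were higher and 5 lower at 6 h (0.927% and 1.60%). At 24 h 14 were higher and 1 lower, which is 17.5% and 1.25% of the 80, against 7.04% and 5.18% of all genes. With the replicate block 4 were lower at 0 h (2.89% of all genes), 1 was higher and 10 lower at 1 h (7.19% and 5.72%), 10 were higher and 9 lower at 3 h (3.82% and 4.50%), and 11 were higher and 10 lower at 6 h (4.34% and 7.85%). In that fit 31 were higher and 4 lower at 24 h (14.7% and 14.1% of all genes). Cr2 was lower in TAK1-deleted cells at 3 h (-0.98 ± 0.15, adjusted p = 0.00162) and at 6 h, where it had 10.09 and 10.00 in TAK1-deleted against 11.58 and 11.54 in wild type cells (-1.51 ± 0.15, adjusted p = 3.81e-05). Its response at 6 h also differed (-1.43 ± 0.21, adjusted p = 0.00965), a call lost without TAK1-deleted 0 h replicate 1 (0.0544), 6 h replicate 2 (0.0677) or either wild type 6 h array (0.0623 and 0.0527). Itpr3, a calcium release channel of the endoplasmic reticulum, was higher in TAK1-deleted cells at 6 h (10.14 and 10.28 against 9.41 and 9.37, a difference of 0.82 ± 0.12, adjusted p = 0.00164). At 24 h Gab2, an adaptor for phosphoinositide 3-kinase, had 9.01 and 9.02 in TAK1-deleted cells against 7.99 and 7.86 in wild type cells (1.09 ± 0.12, adjusted p = 3.12e-05), and its response differed as well (1.26 ± 0.17, adjusted p = 0.000304). Pik3r5, Sit1 and Rasgrp2 were likewise higher at 24 h, by 0.98, 0.98 and 0.94, the time at which the neutrophil and macrophage marker sums also differed.

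The likeness of other genes was measured by Pearson correlation over the 10 group means, among 4578 genes whose means spanned at least 1 on the log2 scale, for the members with such a span. Syk (span 2.05) was most like Rnf144a (r = 0.993), Zcchc24 (0.992) and Rps6ka5 (0.992). Prkcb (span 1.23) was most like Gm2a (0.964), Arhgap15 (0.964) and Anxa6 (0.948), and Malt1 (span 1.63) most like Pde7a (0.949), Stk17b (0.943) and Map3k2 (0.929). Among the 8 genes themselves the correlation ran from -0.593 between Blnk and Pik3ap1 to 0.89 between Blnk and Plcg2, with 0.81 between Syk and Prkcb. These are descriptions over group means that share their arrays and the time course.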

How the data were processed

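Per the submitters' processing notes, the authors used RMA and version 1.0 of Affymetrix Expression Console; the deposited values are on the log2 scale. The genome build of the array annotation is not given in the sources used here. The values were used as deposited (35556 probe sets, array medians 7.37 to 7.52). Probe sets with 1 symbol that reached 7.45 in at least 2 arrays were kept, with the highest-mean one per gene, which left 11968 genes. RMA leaves a background, so folds of dim genes are understated, and the 20 arrays limit the precision (median SE 0.161).

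A limma model (version 3.58.1, R 4.3.3) estimated the group means of all 20 arrays, with moderated variances that follow an intensity trend and 10 residual degrees of freedom, in 23 contrasts, with Benjamini-Hochberg adjustment within each, two-sided, called below 0.05. The code was tested on simulated data. The 8 measured genes were followed in every contrast, with pathway genes named from the 4 largest called changes in each direction and the 3 genes most like a member. Members and lists were chosen with earlier results of these data known.

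Arrays with the same replicate number deviated together: replicate differences correlated at 0.191 to 0.769 over all 45 group pairs. The numbers were therefore taken as pairing the arrays, from the data and not from the labels, and the fit with them as a block is given where it changes a call. Other alternatives were quantile normalization, median centring, other filters, no trend, fits of single contrasts and leaving out each array.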

Additional observations from a re-analysis of the deposited data

Results flagged for a closer look

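The response of Btk to anti-IgM differed between the genotypes in an interaction test fitted with the replicate number as a block. The difference in log2 change from 0 h, TAK1-deleted minus wild type, was 0.69 at 3 h (limma, adjusted p = 0.0213) and 0.68 at 6 h (adjusted p = 0.0123). Within TAK1-deleted cells Btk changed by -0.16 at 3 h and -0.24 at 6 h, and within wild type cells by -0.85 and -0.92. Without the block the same differences had adjusted p-values of 0.278 and 0.145. The fit with the block called 0.560% of all genes higher at 3 h and 1.81% at 6 h. Btk lies on the X chromosome, and the part of the unmatched sexes in its values was not tested.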

How the results depend on the processing

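No called value changed sign under any alternative run. Counts are of gene and time pairs. With the replicate block those higher in TAK1-deleted cells numbered 4 (2 without), those with a higher response 2 (0 without) and wild type rises between adjacent times 6 (2 without); the other counts stayed within 1.5 times. With quantile normalization these 3 counts were 6, 1 and 5, and with median centring the wild type rises were 5. With only the groups of a contrast in the fit, which leaves fewer degrees of freedom, 3 wild type pairs were higher than at 0 h, 1 was higher and 0 lower in TAK1-deleted than wild type cells, 5 TAK1-deleted falls and 4 wild type rises between adjacent times were called. Without the filter on dim probe sets 0 were lower in TAK1-deleted than wild type cells. Leaving out each array in turn, wild type counts against 0 h were 1 to 6 higher and 13 to 16 lower, TAK1-deleted counts 3 to 4 higher and 10 to 11 lower, genotype counts 1 to 2 higher and 0 to 1 lower, response counts 0 in both directions, and counts between adjacent times 1 to 4 higher and 7 to 9 lower in TAK1-deleted cells and 2 to 4 higher and 5 to 8 lower in wild type cells. A lone array left in a group was assumed to vary like the other groups. None of the 3 genotype calls held with every array left out.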

Other observations

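Prkca and Fyn, kinases of the pathway lists that were picked after their values were seen, rose after anti-IgM at different times. In both genotypes Fyn was highest at 3 h and Prkca at 24 h. Prkca, the α isoform of protein kinase C, had log2 values of 11.90 and 11.73 at 24 h against 9.83 and 9.55 at 0 h in TAK1-deleted cells, and 12.26 and 12.07 against 9.81 and 9.37 in wild type cells. It was higher at 24 h by 2.12 ± 0.16 in TAK1-deleted cells (limma, adjusted p = 8.4e-08) and by 2.58 ± 0.16 in wild type cells (adjusted p = 5.17e-09), while Prkcb stood at -0.26 ± 0.11 and -0.43 ± 0.11. At 6 h Prkca had 10.10 and 9.90 in TAK1-deleted against 11.00 and 10.97 in wild type cells (-0.98 ± 0.16, adjusted p = 0.00295), a call lost without TAK1-deleted replicate 2 (adjusted p = 0.0595), and the difference in Prkcb was -0.08 ± 0.11. Fyn had 12.56 and 12.64 at 3 h against 10.49 and 10.25 at 0 h in TAK1-deleted cells, and 12.44 and 12.40 against 10.83 and 10.47 in wild type cells, the time at which Syk was 3.51-fold and 3.73-fold lower.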
